A study of Mus musculus with 16 samples.

Results

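The 6 chemokine receptor genes described here are Ccr1, Ccr2, Ccr7, Ccrl2, Cx3cr1 and Cxcr4, chosen by gene symbol among 22180 genes measured in mouse dendritic cells. Each was read by a single probe set. They were differentiated for 10 days with GM-CSF (20 ng/ml) out of male C57/B6 marrow, and all groups share this culture and a final 24 h treatment. The groups were IMQ in the presence of PA, IMQ alone, PA with mock treatment, and mock alone, with 4 arrays each (16 arrays). PA, read here as palmitic acid, was given at 0.5 mM bound to bovine serum albumin (molar ratio 6 to 1), and IMQ, read here as imiquimod, which activates the RNA sensor TLR7, at a dose written as 3 uM in the design text and as 3 ug/ml in the protocol. Whether cells without PA received albumin is not given in the sources used here. The labels call the replicates biological without naming animals or cultures, so the p-values below speak of array-to-array spread, which may be technical.

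Chemokine receptors are G protein-coupled receptors that steer leukocytes along gradients of chemokines. Ccr2 and Cx3cr1 are best known on monocytes and the cells derived from them, Ccr1 binds several inflammatory CC chemokines, and Cxcr4 binds Cxcl12 and holds cells in bone marrow and tissue. On dendritic cells that mature after meeting a microbial signal, inflammatory receptors are classically lost while Ccr7, which reads Ccl19 and Ccl21 in lymphatic vessels and lymph nodes, is gained. Ccrl2 is an atypical member of the family that binds the chemoattractant chemerin without classical signalling.

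According to the RefSeq annotation 4 of the 6 genes (Ccrl2, Cx3cr1, Ccr1 and Ccr2) lie on chromosome 9, with 2 protein-coding genes, Ccr1l1 and Ccr3, between Ccr1 and Ccr2. The 250 bases before each RefSeq transcript start (build GRCm38.p6) were read for Ccr1, Ccr2, Cx3cr1 and Cxcr4 (1 window each) and Ccrl2 (3 windows, of which that of the most upstream start is printed). Printed here are those of Ccrl2 (chr9:111057519-111057768, minus strand) and Ccr1 (chr9:123968693-123968942, minus strand), the receptors that PA raised most in cells given IMQ, and of Ccr2 (chr9:124101933-124102182, plus strand), the receptor that IMQ lowered most. Capitals mark a match to the NF-kB consensus.
Ccrl2: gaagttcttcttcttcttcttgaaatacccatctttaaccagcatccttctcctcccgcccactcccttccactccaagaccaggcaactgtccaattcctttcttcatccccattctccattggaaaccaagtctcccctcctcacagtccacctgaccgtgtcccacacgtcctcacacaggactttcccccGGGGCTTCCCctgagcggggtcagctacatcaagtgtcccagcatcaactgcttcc
Ccr1: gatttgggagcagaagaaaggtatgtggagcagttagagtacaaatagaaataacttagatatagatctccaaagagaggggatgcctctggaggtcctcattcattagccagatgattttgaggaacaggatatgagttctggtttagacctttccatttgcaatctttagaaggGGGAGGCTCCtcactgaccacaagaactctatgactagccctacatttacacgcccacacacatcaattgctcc
Ccr2: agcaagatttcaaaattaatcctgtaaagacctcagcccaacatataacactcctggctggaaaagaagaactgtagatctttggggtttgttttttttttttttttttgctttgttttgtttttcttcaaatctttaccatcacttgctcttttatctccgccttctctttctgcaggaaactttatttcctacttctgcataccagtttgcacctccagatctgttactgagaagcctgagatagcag
The matched letters were GGGGCTTCCC in Ccrl2, at 56 to 47 bases before the start and on both strands, and GGGAGGCTCC in Ccr1, at 74 to 65 bases before the start. The NF-kB consensus was found in these 2 of the 7 windows read, and so in 1 of the 3 of Ccrl2, and in 7.25% of all 32851 windows of this length. On either strand the AP-1 motif TGANTCA (6.75% of all windows), the interferon-stimulated response element (2.98%), the C/EBP motif TTGCNNAA (9.56%) and the ATF4 and C/EBP composite TGATGNAA (3.45%) were found in none of the 7. The hypoxia response core ACGTG (16.6%) was found in all 3 windows of Ccrl2 and in no other. The 2 Ccrl2 windows that are not printed overlap and hold the same site, so the 7 windows are not all separate sequences. In the printed window the core lay at 82 to 78 bases, without overlap with the NF-kB match. These matches are descriptions of letters and not of binding.

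Values are log2 RMA values, and changes are differences of log2 values from limma, followed by ± and their standard error. The threshold for a call was an adjusted p of 0.05 (Benjamini-Hochberg, over all 22180 genes). Correlations between arrays of the same group, across genes, lay between 0.994 and 0.996. A value below 4.93, the 95th percentile of 1443 odorant, taste and other sensory receptor genes, is treated as not distinguishable from silence. All 8 measured dendritic cell markers, among them Itgax, Flt3 and Zbtb46, had means above that level in every group, and so had all 8 macrophage markers. Of 7 markers of lymphocytes and NK cells, 6 were below it in every group, and so was the 1 measured erythroid marker. Other lists were less silent. Below it in every group were 5 of 9 neutrophil markers and 4 of 8 of mast cells, basophils and eosinophils. Of 6 plasmacytoid dendritic cell markers, 2 were. The other markers of these lists had means above it in at least 1 group. In cell populations, fewer cells with a receptor and less of its RNA per cell cannot be told apart.

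IMQ changed all 6 receptor genes, and PA changed 5 of them in cells given IMQ. Relative to mock, IMQ raised Ccrl2 and Ccr7 and lowered Ccr2, Cxcr4, Cx3cr1 and Ccr1. Limma called 34.8% of all genes in that comparison, 17.0% higher and 17.9% lower, so calls as such were common. This share, like those below, counts 8641 genes (39.0%) with means under 4.93 in every group. None of the 6 receptors is among them. With those genes left out, 7695 genes were called in that comparison, against 7727 with them, so the share among measurable genes was higher. When PA was added to IMQ, Ccrl2 and Ccr7 rose further, Cxcr4 and Cx3cr1 fell further, and Ccr1, lowered by IMQ alone, reached its highest level. Limma called 21.1% of all genes there, 11.6% higher and 9.44% lower. With PA alone 0 of the 6 were called by limma, against 1.49% of all genes, and 1 of the 6, Ccr7, had an unadjusted p under 0.05.

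**Figure D1:**
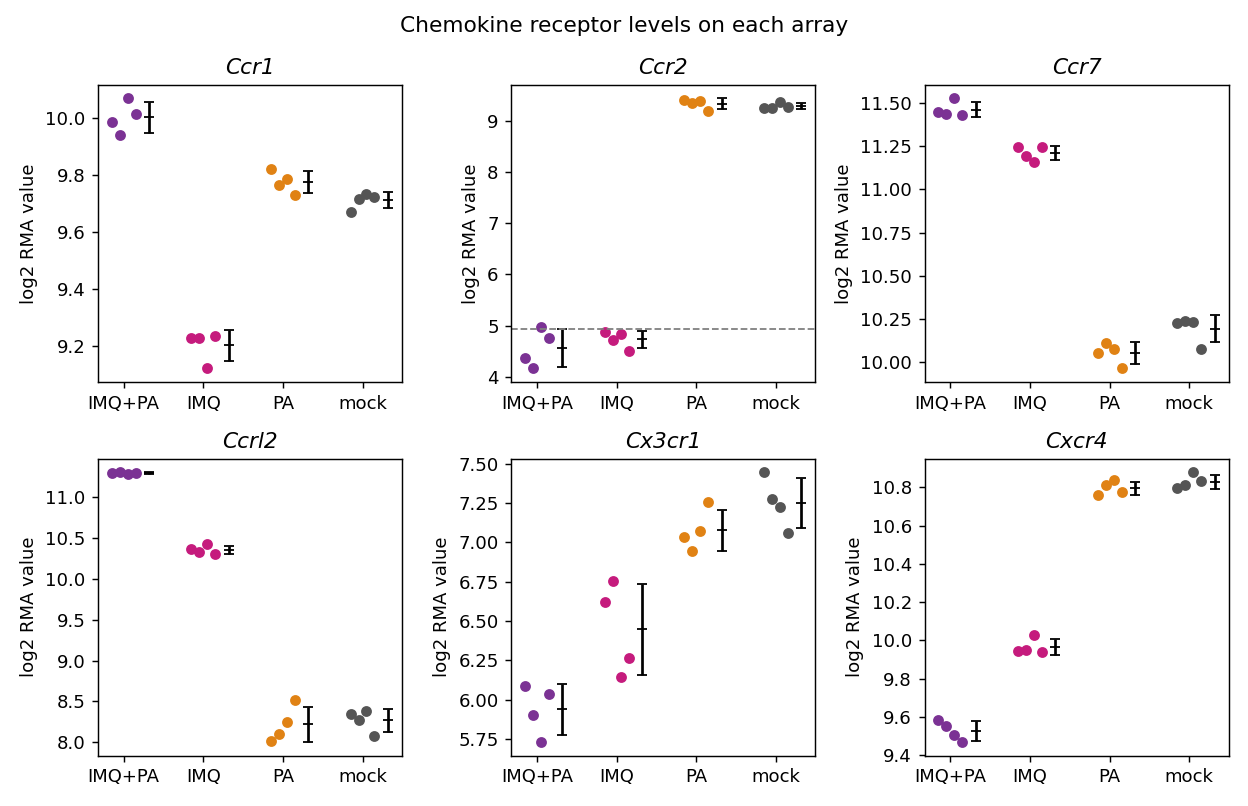
Log2 RMA values of the 6 receptors on each of the 16 arrays, with group means and SD (black bars, n = 4) and, for Ccr2, the level of 4.93 as a dashed line. The IMQ arrays of Ccr1 (at most 9.24) lie below all others and its IMQ+PA arrays (at least 9.94) above all others, while Ccr2 falls to the dashed line in both groups given IMQ.

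Ccr1, a receptor for inflammatory chemokines such as Ccl3 and Ccl5, was the member whose response to IMQ changed direction. It read 9.99, 9.94, 10.07 and 10.02 with IMQ and PA, 9.23, 9.23, 9.12 and 9.24 with IMQ, 9.82, 9.76, 9.79 and 9.73 with PA, and 9.67, 9.72, 9.73 and 9.72 in mock cells. The 4 arrays with IMQ alone were the lowest and the 4 with both agents the highest, and the PA and mock values overlapped between them. IMQ alone lowered Ccr1 by 1.42-fold against mock (log2 change -0.51 ± 0.04, adjusted p = 9.39e-08). PA added to IMQ raised it 1.74-fold (0.80 ± 0.04, adjusted p = 1.95e-09), and in cells that had PA, IMQ raised it by 0.23 ± 0.04 (adjusted p = 0.00052). The interaction, the PA change in cells given IMQ less that in cells without it, was 0.74 ± 0.06 (adjusted p = 7.6e-07). A sum of the separate changes on the log2 scale would have placed the IMQ and PA group at 9.27, and its mean was 10.00 ± 0.05 (SD, n = 4).

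Ccr2, the receptor through which Ccl2 draws monocytes out of bone marrow, had the largest change of the 6. It read 4.36, 4.16, 4.96 and 4.76 with IMQ and PA and 4.87, 4.72, 4.83 and 4.49 with IMQ, against 9.41, 9.36, 9.40 and 9.19 with PA and 9.26, 9.24, 9.37 and 9.28 in mock cells. All 8 arrays given IMQ lay far below all 8 arrays without it, and 7 of the 8 lay under 4.93. The fall with IMQ relative to mock was therefore at least 20.4-fold (measured log2 change -4.56 ± 0.14, adjusted p = 3.81e-13), and that with IMQ in PA-treated cells at least 21.1-fold (measured -4.78 ± 0.14, adjusted p = 2.28e-13). With both means under that level, no fold is given between IMQ with PA and IMQ alone, and neither that comparison nor the interaction was called (adjusted p = 0.459 and 0.55). PA alone left Ccr2 at 0.05 ± 0.14 (95% interval -0.24 to 0.34).

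Cx3cr1, the receptor for fractalkine (Cx3cl1) on monocytes and resident phagocytes, fell in steps. It read 6.09, 5.90, 5.73 and 6.03 with IMQ and PA and 6.62, 6.76, 6.15 and 6.26 with IMQ, against 7.04, 6.95, 7.07 and 7.26 with PA and 7.45, 7.28, 7.23 and 7.06 in mock cells. The values with both agents did not overlap those with IMQ, which did not overlap those without IMQ. It fell 1.75-fold with IMQ (-0.81 ± 0.13, adjusted p = 8.79e-05) and a further 1.42-fold when PA was added (-0.51 ± 0.13, adjusted p = 0.00881). It varied most among replicates with IMQ alone (SD 0.29), and the interaction was not called (-0.33 ± 0.18, adjusted p = 0.279).

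Cxcr4, the receptor for the retention signal Cxcl12, fell in the same order with a tighter spread. It read 9.58, 9.55, 9.50 and 9.47 with IMQ and PA and 9.94, 9.95, 10.03 and 9.94 with IMQ, against 10.76, 10.81, 10.84 and 10.78 with PA and 10.80, 10.81, 10.88 and 10.83 in mock cells. Its 3 levels, both agents, IMQ alone and no IMQ, were separate. IMQ lowered it 1.82-fold against mock (-0.87 ± 0.04, adjusted p = 9.46e-11), and PA added to IMQ lowered it 1.36-fold against IMQ (-0.44 ± 0.04, adjusted p = 1.24e-06). Here the interaction was called (-0.40 ± 0.06, adjusted p = 0.000229).

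Ccr7, the receptor that takes maturing dendritic cells to lymph nodes, was measured well above the silent range in mock cells (10.19 ± 0.08, SD, n = 4) and rose with IMQ. It read 11.45, 11.44, 11.53 and 11.43 with IMQ and PA and 11.24, 11.19, 11.16 and 11.25 with IMQ, against 10.06, 10.11, 10.07 and 9.96 with PA and 10.23, 10.24, 10.23 and 10.08 in mock cells. Each group with IMQ lay above every array without it, and the PA and mock values overlapped through mock replicate 4. Ccr7 rose 2.02-fold with IMQ (1.02 ± 0.05, adjusted p = 9.5e-11) and 1.19-fold more with PA (0.25 ± 0.05, adjusted p = 0.00153). The interaction was 0.39 ± 0.07 (adjusted p = 0.00116). With PA alone the change was -0.14 ± 0.05 (95% interval -0.25 to -0.04), and limma did not call it (adjusted p = 0.197). Moderation with a variance trend and robust weights called it (limma adjusted p = 0.0239).

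Ccrl2, which binds chemerin and can present it to cells that signal through Cmklr1, rose most. It read 11.30, 11.30, 11.28 and 11.29 with IMQ and PA and 10.36, 10.33, 10.42 and 10.30 with IMQ, against 8.02, 8.11, 8.24 and 8.51 with PA and 8.35, 8.27, 8.39 and 8.08 in mock cells. The arrays with both agents differed by an SD of 0.01, and those with PA alone by 0.22. IMQ raised Ccrl2 4.23-fold over mock (2.08 ± 0.09, adjusted p = 2e-11), PA added to IMQ raised it 1.92-fold over IMQ (0.94 ± 0.09, adjusted p = 1.06e-06), and IMQ in PA-treated cells raised it 8.41-fold over PA (3.07 ± 0.09, adjusted p = 2.65e-13). The interaction of 0.99 ± 0.13 (adjusted p = 5.25e-05) was the largest of the 6, and limma called the interaction for 13.6% of all genes.

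**Figure D2:**
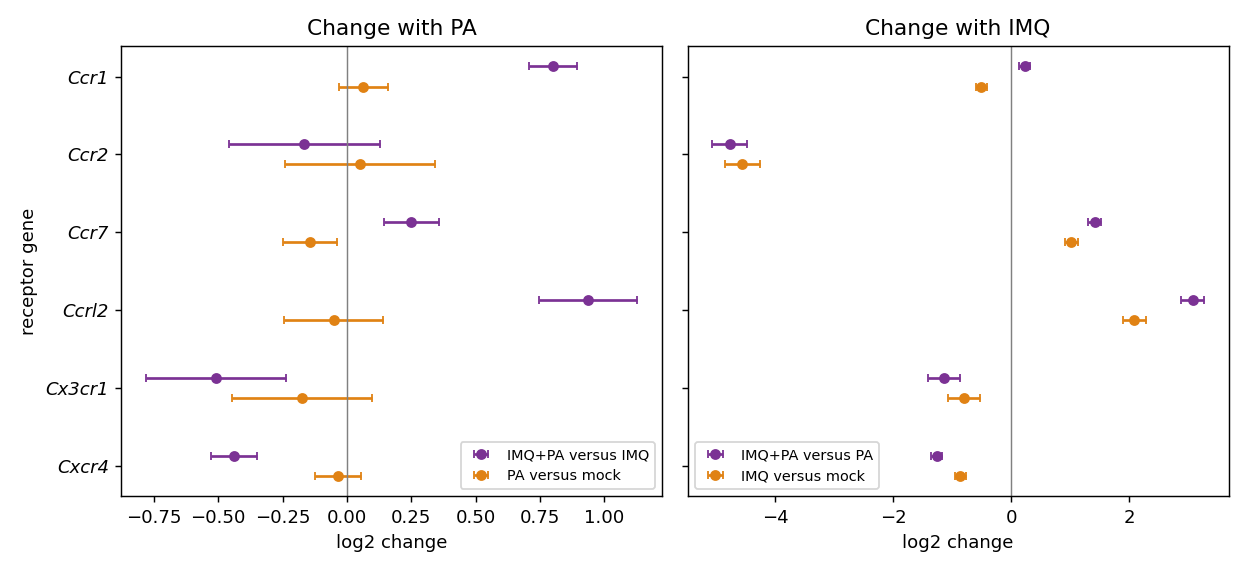
Log2 change of each receptor with PA (left) and with IMQ (right), with 95% intervals from limma, each shown in the presence (purple) and in the absence (orange) of the other agent. With IMQ present the PA changes run from -0.51 (Cx3cr1) to 0.94 (Ccrl2), and Ccr1 has IMQ changes of 0.23 with PA and -0.51 without it. For Ccr2 both means with IMQ were under 4.93. Its IMQ changes are therefore falls of at least 21.1-fold with PA and 20.4-fold without it. The Ccr2 point for PA with IMQ present is not a measure of size.

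Set against mock, the combined treatment changed all 6 receptors, in a comparison in which limma called 36.5% of all genes. The changes were 3.02 ± 0.09 for Ccrl2, 1.27 ± 0.05 for Ccr7 and 0.29 ± 0.04 for Ccr1, and -1.30 ± 0.04 for Cxcr4, -1.31 ± 0.13 for Cx3cr1 and at least 20.4-fold lower for Ccr2. Against PA alone all 6 were called too, beside 35.3% of all genes, with -1.27 ± 0.04 for Cxcr4, -1.14 ± 0.13 for Cx3cr1 and 1.41 ± 0.05 for Ccr7. These comparisons share arrays with those above and are not independent of them. For Ccr7 and Ccrl2 the order of the means was IMQ and PA, IMQ, mock, PA, and for Cxcr4 and Cx3cr1 it was mock, PA, IMQ, IMQ and PA. In these 4 receptors only the mock and PA values overlapped between neighbours in the order.

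With PA alone no receptor was called, and the 95% intervals of its change were -0.03 to 0.16 for Ccr1, -0.24 to 0.14 for Ccrl2, -0.45 to 0.10 for Cx3cr1 and -0.13 to 0.06 for Cxcr4. The 8 arrays without IMQ were not alike in Il6, an inflammatory cytokine, which read 4.12, 3.998, 7.43 and 8.22 with PA and 7.57, 7.90, 7.71 and 4.32 in mock replicates 1 to 4, against at least 11.86 with IMQ. Ccrl2 read 8.02, 8.11 and 8.08 on the 3 arrays with the lowest Il6 (PA replicates 1 and 2 and mock replicate 4) and at least 8.24 on the other 5 without IMQ. The part of this in the PA result was not tested. With those 5 arrays left out, which leaves 1 mock array assumed to vary like the other groups, the change of Ccr7 with PA alone was 0.0056 and its interaction was 0.25 and no longer called (adjusted p = 0.2). The fall of Cx3cr1 with IMQ was then -0.61 (adjusted p = 0.0664), while the other 25 called changes of the 6 receptors kept their calls.

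**Figure D3:**
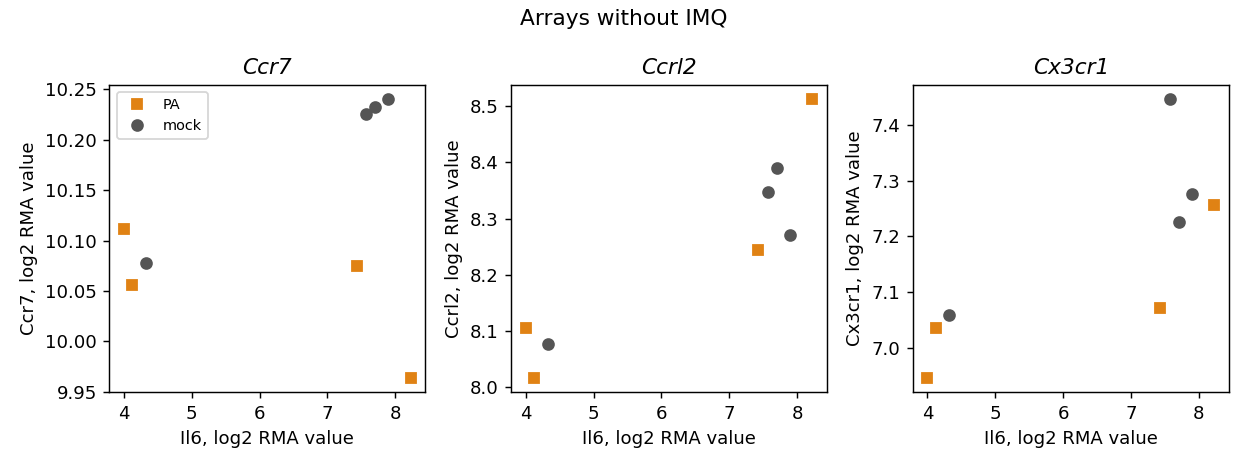
Values of Ccr7, Ccrl2 and Cx3cr1 against Il6 on the 8 arrays without IMQ (4 with PA, 4 mock), all as log2 RMA values. Mock replicate 4, with Il6 at 4.32, has the lowest mock value of each receptor, and Ccr7 reads 10.07 and 9.96 on the PA arrays with Il6 at 7.43 and 8.22, beside 10.06 and 10.11 on the PA arrays with Il6 at or below 4.12.

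Other genes of chemokine reception were counted in lists. Of 11 measured ligands of the 6 receptors IMQ raised 6 and lowered 2 (median log2 change 0.53, against 0.01 over all genes), beside 17.0% of all genes raised and 17.9% lowered. Those raised included Ccl2 (2.49 ± 0.09) and Ccl7 (2.92 ± 0.12), ligands of Ccr2, which itself fell, and Ccl4 (3.23 ± 0.15). Ccl6, a ligand of Ccr1, fell (-1.10 ± 0.06). Adding PA to IMQ changed 3 of the 11, beside 21.1% of all genes, with Ccl2 (0.31 ± 0.09) and Ccl9 (0.22 ± 0.04), another ligand of Ccr1, higher. The call of Ccl2 there was lost without any one of 4 arrays, IMQ replicates 2 and 4 and IMQ and PA replicates 3 and 4 (adjusted p from 0.05 to 0.0605). Ccl12, called lower, had all its means under 4.93, and so had Cxcl12, the ligand of Cxcr4. Ccl19, Ccl21a and the chemerin gene Rarres2 were not analysed here.

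Of 18 other chemokine receptors 10 were under 4.93 in every group. IMQ raised 5 of the 18 and lowered 3 (median 0.08), beside 34.8% of all genes called. Among those called higher, Ccr3 had all its means under 4.93 (3.07 with IMQ, 2.64 in mock cells). Ccr4, which reads Ccl17 and Ccl22, was under that level only in cells without IMQ and rose at least 1.59-fold, the scavenging receptor Ackr3 rose by 1.22 ± 0.16 and the follicle-homing receptor Cxcr5 by 1.10 ± 0.13. PA added to IMQ raised Ccr4 further (0.71 ± 0.10, adjusted p = 7.11e-05) and lowered Cmklr1, the signalling receptor for the chemerin that Ccrl2 binds (-0.57 ± 0.07, adjusted p = 1.78e-05). Ccr4 thus rose with Ccrl2 and Ccr7, and Cmklr1 fell with Cxcr4 and Cx3cr1. The interaction was called for these 2 of the 18, beside 13.6% of all genes, at 0.83 ± 0.14 for Ccr4, whose levels without IMQ were under 4.93, and -0.55 ± 0.10 for Cmklr1, which lost its call without the arrays with high Il6 (-0.36, adjusted p = 0.177).

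**Figure D4:**
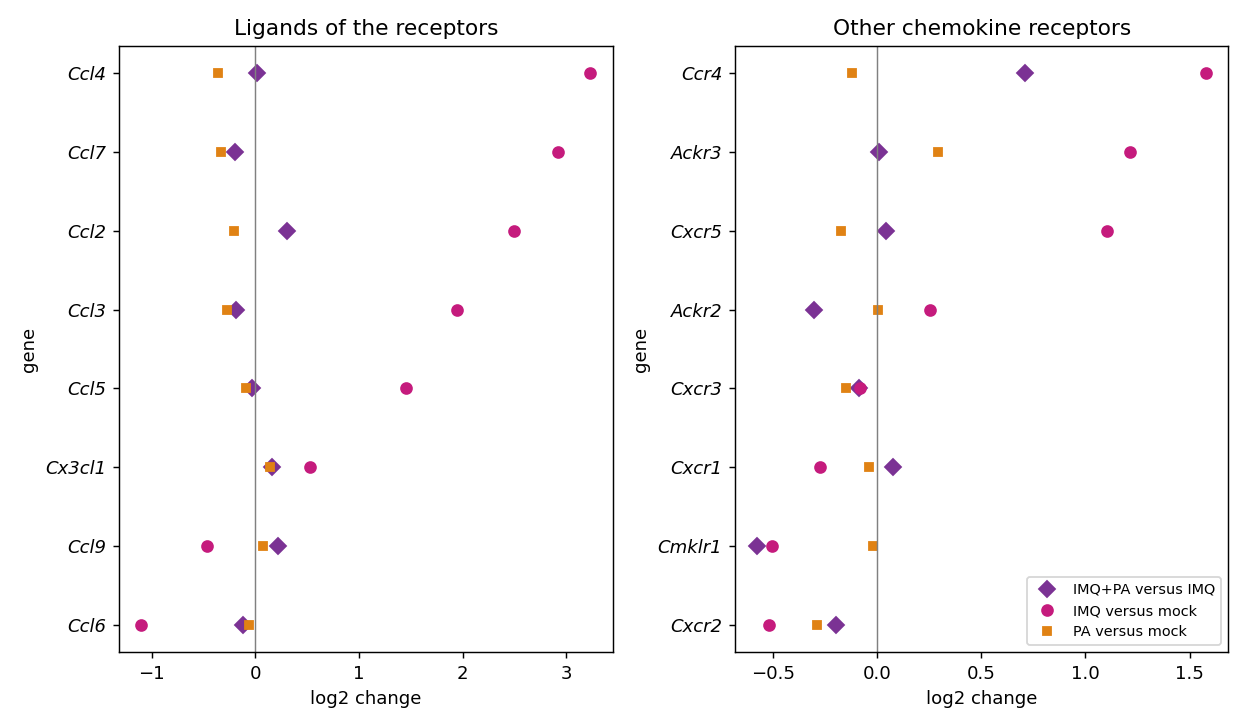
Log2 changes of the ligands of the 6 receptors (left) and of other chemokine receptors (right) that had at least 1 group mean above 4.93. IMQ changes (circles) reach 3.23 for Ccl4, the measured 1.58 of Ccr4 rests on a mock mean under 4.93 and gives at least 1.59-fold, and PA added to IMQ (diamonds) moves Ccr4 by 0.71 and Cmklr1 by -0.57.

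In the list of 25 genes that carry or limit chemokine receptor signals, IMQ raised 10 and lowered 10. For this list and each list in this paragraph, the share over all genes was 17.0% raised and 17.9% lowered with IMQ. With PA added to IMQ the share was 11.6% raised and 9.44% lowered. Of all genes 39.0% were under 4.93 in every group, against 0 genes of these lists, so the shares are not matched for level. Rgs2, which shortens G protein signals, fell most with IMQ (-2.84 ± 0.07), followed by the phospholipase Plcb2 (-1.81 ± 0.04), Rgs18, which fell at least 1.94-fold into the silent range, and Dock2, an activator of Rac (-1.06 ± 0.04). Rgs16 (0.78 ± 0.07), the leukocyte kinase subunit Pik3cg (0.76 ± 0.05) and the GTPase Rac2 (0.63 ± 0.04) rose most. PA added to IMQ raised 5 and lowered 12 (median -0.14), with Rgs2 higher (1.62 ± 0.07) and Vav1 (-0.66 ± 0.04) and Pik3cg (-0.45 ± 0.05) lower. The Rgs2 changes were smaller under the alternatives described below, down to -2.28 with IMQ and 1.19 with PA added to IMQ. Of 15 genes of mature and migratory dendritic cells, the set in which Ccr7 is usually counted, IMQ raised 14 and lowered 1 (median 1.04), and PA added to IMQ raised 7 and lowered 1 (median 0.25). Cd86 (0.97 ± 0.07), Cd83 (0.76 ± 0.05) and Cd80 (0.66 ± 0.06) rose with Ccr7 when PA was added, and Fscn1, the actin-bundling protein fascin of dendrites, fell (-0.25 ± 0.05). Of 12 monocyte genes, beside which Ccr2 and Cx3cr1 are usually counted, IMQ raised 6 and lowered 5, with F13a1 lower (-2.02 ± 0.08) and the endotoxin co-receptor Cd14 higher (1.84 ± 0.08). PA added to IMQ lowered 7 of the 12 and raised 2 (median -0.41), among them Fcgr1 (-0.89 ± 0.05) and Ly6c2 (-0.48 ± 0.05) lower and the nuclear receptor Nr4a1 higher (2.58 ± 0.11). Marker genes of cell types moved as well. Of the 8 dendritic cell markers IMQ raised 2 and lowered 6, with mean levels per array of 8.55 to 8.64 with IMQ and PA, 8.58 to 8.63 with IMQ, 8.88 to 9.01 with PA and 8.98 to 9.07 in mock cells. Of the 8 macrophage markers IMQ raised 3 and lowered 5, and PA added to IMQ raised 2 and lowered 6, with mean levels of 9.27 to 9.35 on arrays with IMQ and PA, 9.45 to 9.52 with IMQ, 9.85 to 9.92 with PA and 9.97 to 10.04 in mock cells, and the part of either list in the changes of the receptors was not tested.

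Among 12399 genes, those whose values followed each receptor most closely over the 16 arrays were found by Pearson correlation, as a description, since the arrays share 4 groups. Closest to Ccr1 were the metalloproteinase gene Mmp19 (r = 0.986) and Dcstamp, a fusion protein of osteoclasts and dendritic cells (0.984), both with larger swings than Ccr1, of -2.15 and -1.75 with IMQ against mock and 3.00 and 2.32 when PA was added to IMQ. Closest to Ccr2 were the RNA-binding protein Zfp36l2 and Anxa4 (each 0.998), and to Cx3cr1 Ivns1abp (0.966) and the kinase Sbk1 (0.963). Cxcr4 was followed by Kynu, an enzyme of tryptophan breakdown (0.998), and the splicing factor Mbnl1 (0.997). Ccr7 was followed by the TNF family cytokine Tnfsf15 (0.995) and the stress gene Gadd45b (0.993), and Ccrl2 by Cd200, a ligand that restrains myeloid cells (0.999), and the ephrin receptor Epha4 (0.998).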

How the data were processed

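Total RNA (200 ng) was made into biotin-labelled DNA and hybridised to 1-colour Affymetrix whole-transcript mouse arrays, per the labels' protocols. The deposited log2 values of 41345 probe sets on 16 arrays were made by the authors with RMA and affy (versions and genome build not given in the sources used here), per the submitters' processing notes. RMA corrects background, normalises by quantiles, which sets the arrays to like distributions, and summarises probes. Values ran from 0.628 to 13.5, array medians from 4.99 to 5.06, and with no read depth on arrays, their number sets the precision. Of the probe sets, 23521 had 1 symbol in the platform annotation, 1814 several and 16010 none, and only the first were used. The probe set with the highest mean was kept where a gene had more than 1 (1082 genes), which left 22180.

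The 16 arrays entered 1 linear model of the 4 group means (limma 3.58.1, R 4.3.3, eBayes, two-sided), adjusted by Benjamini-Hochberg over all genes. The 6 receptors, the lists and the alternatives (repeated quantile normalization, array medians, variance trend, only the groups compared, a filter on dim genes, probe set choices, a replicate block and arrays left out) were chosen with earlier results of these data known. Named list genes are, from each list and comparison, the largest changes among called genes, up to 3 in the commoner direction and 1 in the opposite. Where both had 10 calls, 3 raised and 4 lowered genes are given. Not all named genes are printed. Like genes are the 2 with the highest correlation for each receptor, among genes with a group mean above 4.93 and leaving out predicted loci. Sequences came from RefSeq (GRCm38.p6), where all 6 receptors matched by gene number and 5 of the 6 had a promoter window. Same-numbered replicates of different groups had deviations that correlated at -0.12 to 0.17 (over 0.1 in 4 of 24 pairs), so the numbers were not taken to pair arrays.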

Additional observations from a re-analysis of the deposited data

Results flagged for a closer look

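In groups of 4 arrays a single value lay far from the other 3 for Ccr1 in IMQ replicate 3 (9.12), Ccr7 in IMQ and PA replicate 3 (11.53) and in mock replicate 4 (10.08), Cxcr4 in IMQ replicate 3 (10.03) and Il6 in mock replicate 4 (4.32). These are 5 of 28 groups checked, and chance gives about 1 in 20.

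The change with PA in cells given IMQ differed from the change with PA alone, by the limma interaction, in Ccrl2 (0.99), Ccr1 (0.74), Ccr7 (0.39) and Cxcr4 (-0.40). Over all genes the interaction was called for 13.6%. The lists, to be set against the same share, hold 18, 11, 25, 15 and 12 measured genes. Among them the interaction was called positive in 17 and negative in 20, of which those named in any comparison are given here. It was positive in Nr4a1 (2.39), Rgs2 (1.63), Ccr4 (0.83), Cd83 (0.82), Cd86 (0.77), Rgs1 (0.74), Cd80 (0.62), Ccl2 (0.51), Ptger4 (0.47), Ccl17 (0.47), Rgs16 (0.34) and Klf2 (0.26). For Ccl17 the positive value came with a fall with PA alone (-0.42 ± 0.04, limma adjusted p = 7.9e-05). That call was not kept under every alternative. The Ccl17 means were 10.00 with IMQ and 10.05 with IMQ and PA. The interaction was negative in Ly6c1 (-1.11), Fcgr1 (-0.79), Vav1 (-0.67), Rgs18 (-0.61), Cmklr1 (-0.55), F13a1 (-0.54), Pik3cg (-0.51), Klf4 (-0.36), Plcb2 (-0.36), Ly6c2 (-0.27) and Dock2 (-0.20). Rgs18 lay under 4.93 in both groups given IMQ, Ccr4 in both groups without it and Ly6c1 in every group but IMQ alone, so their values are not measures of size. Of the genes whose values followed a receptor, the interaction was called in Mmp19 (2.79) and Dcstamp (2.20), which followed Ccr1, Epha4 (1.05) and Cd200 (0.73), which followed Ccrl2, Tnfsf15 (0.70) and Gadd45b (0.55), which followed Ccr7, and Kynu (-0.64) and Mbnl1 (-0.58), which followed Cxcr4. These genes were chosen for their likeness to a receptor, so their differences are a description.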

How the results depend on the processing

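Of 654 values of the 6 receptors under the alternatives, 649 kept their direction and their side of the threshold. Much of this was fixed in advance. Each receptor had 1 probe set, so the probe set choices left its log2 changes as they were. The variance trend, the fits of only the groups compared and the filter on dim genes alter the test and not the log2 change. The change of Ccr7 with PA alone was called with a variance trend and robust moderation, which gave 1 receptor called in that comparison against 0, and it turned to 0.0056 without the arrays not given IMQ that had Il6 above 6. The change of Ccrl2 with PA alone, not called under any alternative, lay between -0.15 and 0.016 when single arrays were left out, the positive value coming without PA replicate 1. Without the arrays with Il6 above 6, the interaction of Ccr7 (0.25) and the fall of Cx3cr1 with IMQ (-0.61) lost their calls; that alternative keeps 3 of the 8 arrays without IMQ. As every group holds the same replicate numbers, the replicate block can alter standard errors but not a log2 change. It changed no call of the 6 receptors. Over all genes, PA versus mock gave 331 calls, 737 with the variance trend, 531 with dim genes left out, 150 with only the groups compared, 15 without the arrays with Il6 above 6, and from 170 to 346 when single arrays were left out. It moved by over 1.5 times without mock replicates 1 (201) or 2 (170) or PA replicates 3 (220) or 4 (192). The interaction gave 3015 calls and 1200 without the arrays with Il6 above 6. Of 1660 values of the other named genes, 37 lost their call, most of them for the interactions of Ly6c1 and Rgs18. Direction changed in 0, though several of the alternatives could not change it. The 3 Rgs2 changes named above kept their calls but not their size. With IMQ against mock the change shrank from -2.84 to as little as -2.28. With PA added to IMQ it shrank from 1.62 to 1.19, against at least 1.53 when single arrays were left out. The interaction shrank from 1.63 to 1.12.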
